A study of Mus musculus with 6 samples.

Results

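Transcripts of the subcortical maternal complex and of oocyte NLRP genes were compared between ovaries of tumor-bearing and control mice. The set held 10 genes, picked by symbol: Nlrp5, Ooep, Tle6, Khdc3, Padi6, Nlrp14, Nlrp2, Nlrp4f, Nlrp9b and Zbed3. All 10 were among the 19423 genes of the deposited gene table, and all 10 passed the filter on low counts that left 15787 genes for testing. RNA came from whole ovaries of balb/c-nude mice, a strain that lacks a thymus and so accepts human tumor cells, in 6 libraries of day 80. The 3 tumor libraries came from mice injected subcutaneously with cancer cells of a line spelled MBA-MD-231 in the labels, and the 3 control libraries from mice for which no injection is listed. In the treatment labels the number of that name differs between the tumor samples by steps of 1, which the cell line label does not show. The labels give neither the age of the animals nor the stage of the estrous cycle, and they do not say whether each library is 1 animal, so the p-values measure the spread between these libraries. The study's title concerns follicle loss in breast cancer, and the comparison asks how stored oocyte transcripts differ in ovaries of mice with a tumor.

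The subcortical maternal complex is a protein assembly under the membrane of the growing oocyte and early embryo, and mouse embryos that lack its main parts arrest at early cleavage. Nlrp5, also known as Mater, Ooep, also known as Floped, Tle6 and Khdc3, also known as Filia, encode its core. Padi6 encodes a peptidyl arginine deiminase family protein needed for the fibrous lattices of the oocyte cytoplasm, and Nlrp2, Nlrp4f and Zbed3 encode reported partners. Nlrp14 and Nlrp9b belong to the NLRP family, which pairs a nucleotide-binding domain with leucine-rich repeats; some members of this family build inflammasomes in immune cells, and another branch is expressed in oocytes.

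The genes lie at separate places in the genome build GRCm38.p6, in the coordinates of the deposited annotation. Nlrp5 (NCBI gene 23968) spans chromosome 7 from 23385889 to 23441923, Nlrp14 (76858) chromosome 7 from 107113388 to 107198103, Nlrp2 (232827) chromosome 7 from 5298547 to 5351035 and Nlrp9b (243874) chromosome 7 from 19991393 to 20062942. Ooep (67968) and Khdc3 (66991) lie on chromosome 9, from 78376116 to 78378588 and from 73101381 to 73106631. Nlrp4f (97895) and Zbed3 (72114) lie on chromosome 13, from 65177111 to 65205716 and from 95323605 to 95343292. Padi6 (242726) lies on chromosome 4 from 140727355 to 140742643, and Tle6 (114606) on chromosome 10 from 81590904 to 81601185.

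Since most of the 10 genes were higher together in the tumor libraries, the bases around their starts were read from RefSeq windows of GRCm38.p6 that run from 250 bases before a transcript's start to 50 bases after it. Windows of 9 of the 10 genes, all but Nlrp14, were matched by symbol, 13 windows in all because Nlrp5, Tle6 and Zbed3 have several starts. The motif searched first was the E-box CANNTG, the letters that basic helix-loop-helix factors bind, among them the oocyte factor FIGLA; it reads the same on both strands. It was found in 12 of the 13 windows, of 8 genes, against 72.3% of the 32851 RefSeq windows, and the 1 window without it was that of Nlrp2. In Ooep, Khdc3 and Padi6 an E-box occupied the same place, 78 to 73 bases before the start. An E-box at exactly this place was present in 0.484% of the 32851 windows; the place was singled out after the windows had been read, and a match is no evidence of binding. The letters there were CACTTG in Ooep, CAGGTG in Khdc3 and CACCTG in Padi6. The windows of these 3 genes are printed below with that of Nlrp4f, the gene with the largest fold change of the 10, and that of Nlrp2, 5′ to 3′ on the gene's strand and with every CANNTG in capitals. They cover chr9:78378539-78378838 on the minus strand for Ooep, chr9:73102148-73102447 on the plus strand for Khdc3, chr4:140742594-140742893 on the minus strand for Padi6, chr13:65205667-65205966 on the minus strand for Nlrp4f and chr7:5350986-5351285 on the minus strand for Nlrp2.
Ooep: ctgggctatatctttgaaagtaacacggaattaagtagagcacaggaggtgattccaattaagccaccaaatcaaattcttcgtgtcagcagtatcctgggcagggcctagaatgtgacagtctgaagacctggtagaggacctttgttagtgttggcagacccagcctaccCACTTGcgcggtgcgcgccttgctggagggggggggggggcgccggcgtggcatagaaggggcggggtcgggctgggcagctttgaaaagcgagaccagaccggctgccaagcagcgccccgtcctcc
Khdc3: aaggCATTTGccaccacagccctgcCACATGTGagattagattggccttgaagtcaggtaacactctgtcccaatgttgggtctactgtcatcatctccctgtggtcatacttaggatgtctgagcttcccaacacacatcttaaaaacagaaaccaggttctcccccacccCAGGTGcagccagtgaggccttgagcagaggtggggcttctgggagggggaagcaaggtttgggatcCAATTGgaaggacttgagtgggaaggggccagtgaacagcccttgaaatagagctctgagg
Padi6: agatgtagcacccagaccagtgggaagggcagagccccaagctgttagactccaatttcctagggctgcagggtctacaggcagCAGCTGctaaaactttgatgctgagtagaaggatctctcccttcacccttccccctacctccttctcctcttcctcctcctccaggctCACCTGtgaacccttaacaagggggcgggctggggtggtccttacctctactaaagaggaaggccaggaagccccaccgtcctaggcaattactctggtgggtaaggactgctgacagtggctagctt
Nlrp4f: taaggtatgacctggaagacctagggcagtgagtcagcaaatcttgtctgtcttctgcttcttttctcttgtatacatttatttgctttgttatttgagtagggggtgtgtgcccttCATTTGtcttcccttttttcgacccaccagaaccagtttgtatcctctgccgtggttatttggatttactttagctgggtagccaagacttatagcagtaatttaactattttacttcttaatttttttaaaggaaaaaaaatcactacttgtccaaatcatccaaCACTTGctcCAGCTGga
Nlrp2: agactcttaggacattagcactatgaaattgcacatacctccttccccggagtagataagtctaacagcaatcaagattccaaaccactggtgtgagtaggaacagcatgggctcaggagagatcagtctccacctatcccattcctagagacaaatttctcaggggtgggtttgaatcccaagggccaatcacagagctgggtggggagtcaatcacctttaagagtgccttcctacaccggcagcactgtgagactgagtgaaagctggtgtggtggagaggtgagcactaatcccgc

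A further 3 motifs were searched on both strands. CACCTG, a special case of CANNTG, was found in 5 of the 13 windows, of Padi6, Khdc3, Nlrp9b and Zbed3, against 20.2% of all windows. TAATTG, letters bound by homeodomain factors such as the oocyte factor NOBOX, was found in 3 of the 13 windows, of Ooep, Nlrp9b and Padi6, against 8.0% of all windows. TATAAA was found in 3 of the 13, of Nlrp5, Nlrp9b and Zbed3, against 13.6%. The windows of Khdc3, Nlrp9b and Tle6, 1 of those of Nlrp5 and 2 of those of Zbed3 lie within the gene's span.

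The libraries held from 18278614 to 19238900 estimated counts. Tumor replicate 1 scored -34.6 on the leading principal component (52.1% of the variance of log2 CPM), beside -42.8, -42.1 and -5.23 for control replicates 1, 2 and 3 and 49.6 and 75.1 for the other tumor libraries. On the next component (28.8%) it scored -66.5, apart from both groups. There control replicates 1, 2 and 3 scored 32.9, 2.36 and 39.85, and tumor replicates 2 and 3 scored -2.34 and -6.25. Fold changes are therefore also given without single libraries. All 12 oocyte markers checked (Gdf9, Bmp15, Zp1, Zp2, Zp3, Ddx4, Dazl, Figla, Nobox, Oosp1, Npm2, Zar1) were tested and had counts in every library, with summed levels of 333.5 to 440.3 CPM in control and 504.0 to 632.6 CPM in tumor. In edgeR's test 5 of the 12 rose, against 3.8% of all genes, none fell and 7 did not pass, with a median log2 fold change of 0.62. In 10 of the 12 every tumor library lay above every control library, against 19.8% of all genes. In whole ovaries, a difference in the number of oocytes and one in the RNA per oocyte cannot be told apart. Marker sums of other cell types also differed between libraries. The 7 adipocyte markers summed to between 433.9 and 613.9 CPM in control and to 7161, 622.7 and 2870 CPM in tumor replicates 1, 2 and 3, and the 5 luteal markers to between 701.9 and 2589 CPM in control and between 124.9 and 560.2 CPM in tumor. Of the luteal markers 3 of 5 fell in edgeR's test, against 3.91% of all genes. Of the 7 adipocyte markers none passed, although 6 were higher in tumor at an unadjusted p under 0.05, against 15.8% of all genes. These 6 were also higher at a q under 0.05 in the authors' deposited table, against 7.36% of its genes with a q. No marker had a count of 0 in any library. Sums of the 6 oviduct and ciliated cell markers ranged from 444.1 to 2078 CPM in control and from 32.1 to 1860 CPM in tumor, those of 8 granulosa markers from 3409 to 4607 and from 2839 to 4864 CPM, those of 4 theca markers from 227.4 to 2883 and from 287.0 to 2689 CPM, and those of 5 leukocyte markers from 108.2 to 123.8 and from 96.2 to 152.1 CPM. Of the genes of these 4 lists only the theca marker Ptch1 passed the test, and it rose, while 7.71% of all genes passed in either direction. At an unadjusted p under 0.05 in edgeR, 2 granulosa and 2 theca markers were higher in tumor, against 15.8% of all genes. Among them was the granulosa marker Inhbb, with means of 245.2 CPM in control and 548.1 CPM in tumor (adjusted p 0.111, edgeR). The part of these cell types in the results below was not tested.

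Most of the 10 genes had higher transcript levels in tumor ovaries. In edgeR's quasi-likelihood test 6 of the 10 rose, Nlrp4f, Nlrp14, Nlrp5, Nlrp9b, Ooep and Zbed3, none fell, and Nlrp2, Padi6, Khdc3 and Tle6 did not pass at an adjusted p under 0.05. Of all 15787 genes tested, 3.8% rose and 3.91% fell by the same rule, 7.71% in all. Nlrp4f rose 2.62-fold, Nlrp14 2.01-fold and Nlrp5 1.90-fold, while Tle6 had 1.16 times its control level. In 9 of the 10 genes every tumor library lay above every control library, against 19.8% of all genes, and the exception was Tle6. The reverse, every tumor library below every control library, held for none of the 10 and for 18.4% of all genes. The median log2 fold change of the 10 was 0.74, beside -0.02 over all genes tested. Levels are given as CPM, the counts of a gene relative to the TMM-scaled library size.

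**Figure D1:**
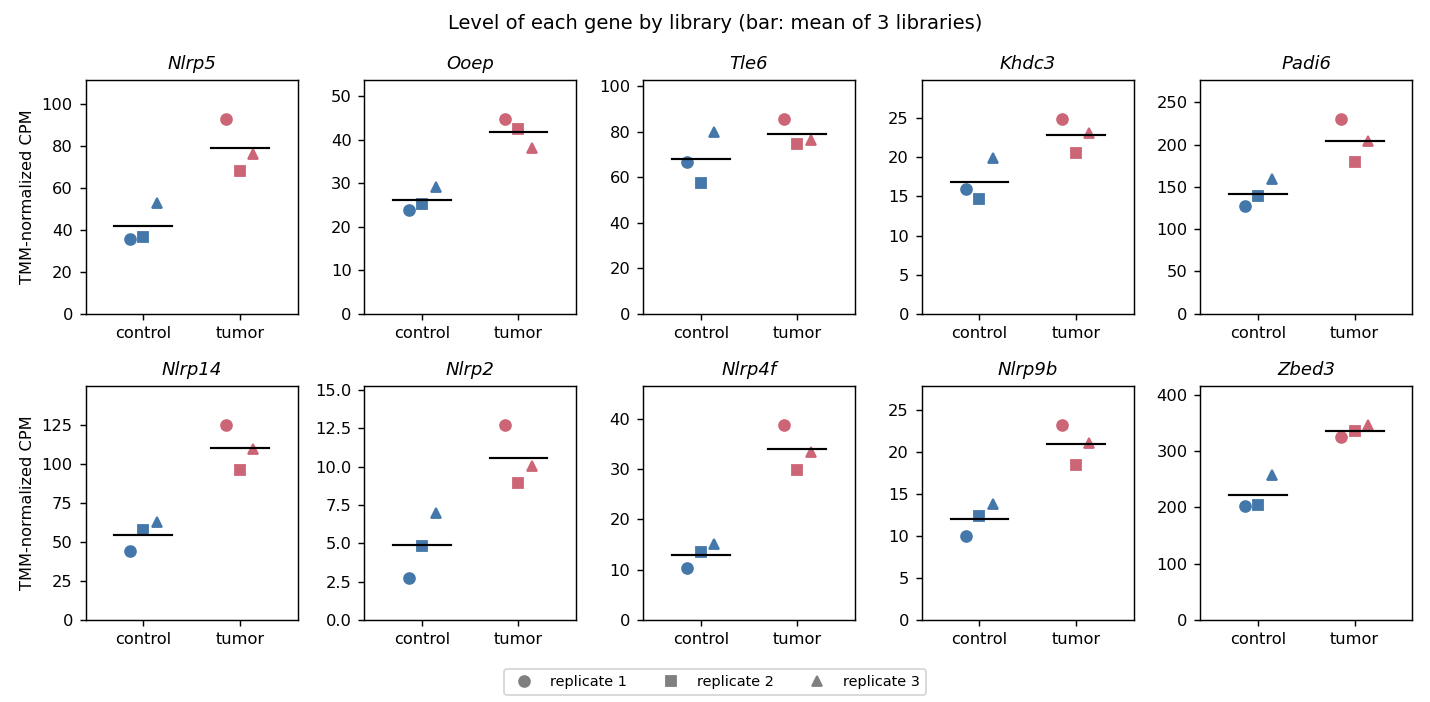
TMM-normalized CPM of the 10 genes (y axis, from 0, a scale for each gene) in the control and tumor libraries (x axis); symbols mark replicates 1 to 3 and bars the mean of 3 libraries. The tumor libraries lie above all control libraries in every panel except that of Tle6, and control replicate 3 is the highest control library in all 10.

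Of the 4 core genes of the complex, Nlrp5 and Ooep rose. Nlrp5, which encodes the NLRP protein that the complex is built around, was measured at 35.7, 36.4 and 53.0 CPM in control replicates 1, 2 and 3 and at 93.0, 68.1 and 76.2 CPM in tumor replicates 1, 2 and 3. The groups did not overlap, and control replicate 3 lay between the other control libraries and the tumor libraries. The means were 41.7 ± 9.79 and 79.1 ± 12.7 CPM (SD, n = 3 each), and the fitted log2 fold change was 0.92 ± 0.20 (SE; adjusted p 0.0451, edgeR). After a correction for gene length the log2 fold change was 0.89 (adjusted p 0.0723, edgeR), and 8.93% of the 50-base windows of its longest transcript are shared with other genes, mostly the pseudogene Nlrp5-ps.

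Ooep encodes a small KH-domain protein of the core. It was measured at 23.9, 25.1 and 29.1 CPM in the control libraries and at 44.8, 42.3 and 38.0 CPM in the tumor libraries. The groups did not overlap, with the lowest tumor library at 1.31 times the highest control library. Its log2 fold change was 0.68 ± 0.12 (SE; adjusted p 0.0378, edgeR). After the length correction it was 0.92 (adjusted p 0.0419, edgeR).

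Khdc3, whose protein carries another KH domain and acts in genome stability of the early embryo, did not pass. It was measured at 15.9, 14.7 and 19.9 CPM in control and 24.9, 20.5 and 23.1 CPM in tumor. The groups did not overlap, but the lowest tumor library was only 1.03 times the highest control library. The log2 fold change was 0.44 ± 0.16 (SE; adjusted p 0.118, edgeR). In GENCODE M21, 42.8% of the 50-base windows of the longest Khdc3 transcript also occur in the overlapping gene Gm20509, so reads there cannot be told apart.

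Tle6, which encodes a Groucho-family protein of the core, was the gene of the 10 with the smallest difference. It was measured at 66.8, 57.4 and 79.7 CPM in control and at 85.6, 74.7 and 76.3 CPM in tumor. Control replicate 3 lay above 2 of the 3 tumor libraries. The log2 fold change was 0.21 ± 0.14 (SE; adjusted p 0.330, edgeR). Over the libraries left out in turn it ranged from 0.15 without control replicate 2 to 0.38 without control replicate 3.

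Among the genes of partner proteins and of the cytoplasmic lattices, Nlrp4f and Zbed3 rose and Padi6 and Nlrp2 did not pass. Nlrp4f, an oocyte NLRP gene whose protein is reported to act on the oocyte's organelles, was measured at 10.4, 13.5 and 15.1 CPM in control and at 38.8, 29.8 and 33.4 CPM in tumor. Every tumor library was at least 1.98 times the highest control library, the widest gap of the 10 genes. Its log2 fold change was 1.39 ± 0.18 (SE; adjusted p 0.0301, edgeR). Of its 50-base windows 7.08% are shared with other genes, mostly Nlrp4g.

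Zbed3, whose zinc finger protein helps position the spindle of early cleavage and which other tissues express as well, was measured at 202.8, 204.5 and 257.2 CPM in control and at 325.6, 336.5 and 347.0 CPM in tumor. The tumor libraries lay close together, with a coefficient of variation of 3.18% against 13.96% in control. The log2 fold change was 0.60 ± 0.12 (SE; adjusted p 0.0408, edgeR).

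Padi6 was measured at 127.1, 138.8 and 160.0 CPM in control and at 230.8, 180.0 and 204.2 CPM in tumor. The groups did not overlap, yet the adjusted p was 0.0590 in edgeR, at a log2 fold change of 0.53 ± 0.13 (SE). Nlrp2, the least abundant of the 10, was measured at 2.76, 4.81 and 6.997 CPM in control and at 12.7, 8.95 and 10.0 CPM in tumor. Its control libraries spread more widely than those of any other of the 10 genes, with a coefficient of variation of 43.7%. The log2 fold change was 1.12 ± 0.36 (SE; adjusted p 0.0950, edgeR), and it ranged from 0.87 when control replicate 1 was left out to 1.51 when control replicate 3 was. Its counts lay between 51 and 245 per library, and the antisense gene Gm18757 overlaps it, which cannot be told apart without strand.

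The remaining pair, the oocyte NLRP genes Nlrp14 and Nlrp9b, both rose. Nlrp14, which is expressed in germ cells and is needed for early embryos of the mouse, was measured at 43.9, 57.3 and 62.8 CPM in control and at 124.9, 96.0 and 109.2 CPM in tumor. The lowest tumor library was 1.53 times the highest control library. Its log2 fold change was 1.01 ± 0.16 (SE; adjusted p 0.0355, edgeR). No 50-base window of its longest transcript is shared with another gene, and the same is true of Padi6 and Zbed3.

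Nlrp9b, which is also known from an inflammasome of the intestinal epithelium, was measured at 9.94, 12.4 and 13.8 CPM in control and at 23.2, 18.5 and 21.0 CPM in tumor. The groups did not overlap. The log2 fold change was 0.80 ± 0.17 (SE; adjusted p 0.0455, edgeR). After the length correction it was 0.77 (adjusted p 0.0696, edgeR). Of its 50-base windows 6.22% also occur in other genes, mostly Nlrp9a, and its exons overlap those of Gm18877 in GENCODE M21.

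The calls rested on single libraries more than the fold changes did. Without control replicate 1, control replicate 3, tumor replicate 2 or tumor replicate 3, none of the 10 genes passed edgeR's threshold. The whole table then held 0, 5, 3 and 0 genes that passed, against 1217 with all 6 libraries. At an unadjusted p under 0.05, 8, 10, 9 and 8 of the 10 were higher in tumor. Of all genes, 3137 of 16013, 3464 of 16036, 3961 of 16050 and 3761 of 16041 had such a p in either direction. With all 6 libraries, 9 of the 10 and 15.8% of all genes had such a p and were higher in tumor. Without tumor replicate 1 the same number of 6 of the 10 passed, and without control replicate 2 there were 4, as Nlrp5 and Nlrp9b had adjusted p of 0.0698 and 0.0545. Over the 6 libraries left out in turn the log2 fold change ranged from 1.27 to 1.54 in Nlrp4f, from 0.90 to 1.15 in Nlrp14, from 0.79 to 1.17 in Nlrp5, from 0.70 to 0.94 in Nlrp9b, from 0.63 to 0.80 in Ooep and from 0.56 to 0.75 in Zbed3. In each of these 6 genes, and in Padi6 and Nlrp2, the unadjusted p stayed under 0.05 in all 6 of these fits. The share of all genes for which this held was not computed. The authors' deposited table listed 8 of the 10 genes as higher in tumor at a q under 0.05, against 7.36% of its genes with a q; Khdc3 and Tle6, with q of 0.119 and 0.436, were the exceptions.

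**Figure D2:**
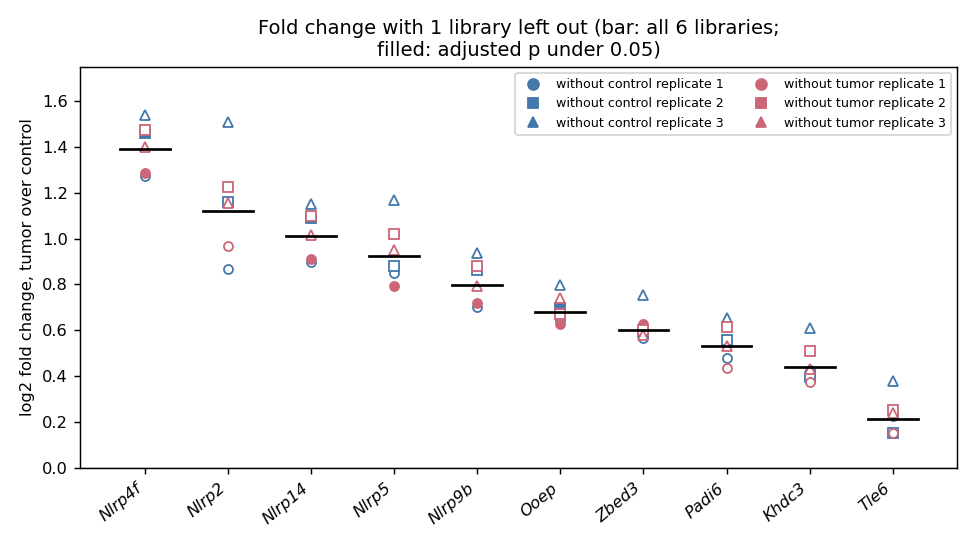
Log2 fold change of tumor over control (y axis) for the 10 genes (x axis) with 1 library left out at a time; bars show the value from all 6 libraries, and filled symbols an adjusted p under 0.05 in edgeR. All values lie above 0, Nlrp4f between 1.27 and 1.54 and Tle6 between 0.15 and 0.38, and filled symbols occur only without control replicate 2 or tumor replicate 1.

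The libraries of a group kept nearly the same order in all 10 genes. Control replicate 3 was the highest control library in 10 of the 10 genes, and control replicate 1 the lowest in 8. Tumor replicate 1 was the highest tumor library in 9, with Zbed3 as the exception, and tumor replicate 2 the lowest in 8. The same order was seen in a reference of 5 other oocyte genes, Zp1, Zp2 and Zp3 of the zona pellucida and the growth factor genes Gdf9 and Bmp15. Their mean log2 CPM was 5.52, 5.62 and 5.95 in control replicates 1, 2 and 3 and 6.48, 6.13 and 6.34 in tumor replicates 1, 2 and 3, and its difference between the groups was 0.62. Over all 6 libraries, the 5 genes of 13797 ranked that correlated most with the mean scaled profile of the 10 were Gdf9, Pabpc1l, Fbxw18, Khdc1b and Gdpd1, with Pearson's r between 0.995 and 0.997 over 6 libraries. These values share libraries and depth, and the group difference enters them. Gdf9 was measured at 71.8, 72.4 and 96.3 CPM in control and at 148.0, 122.0 and 136.6 CPM in tumor, with the same high and low libraries as Nlrp5.

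Set against that reference, the ratios of the 10 genes took different directions. For each library the mean log2 CPM of Zp1, Zp2, Zp3, Gdf9 and Bmp15 was subtracted from the log2 CPM of the gene, which gives a log2 ratio. Of the 10 genes, 5 had a ratio in every tumor library above that in every control library (Nlrp4f, Nlrp2, Nlrp14, Nlrp5 and Nlrp9b, which are the 5 NLRP genes), 3 had it below (Tle6, Khdc3 and Padi6), and Ooep and Zbed3 overlapped. The share of all genes whose ratios separate the groups was not computed. The reference was itself 0.62 higher in tumor, so a gene with an unchanged CPM would have a lower ratio there. In CPM, Tle6, Khdc3 and Padi6 had log2 fold changes above 0 (0.21, 0.44 and 0.53). With 3 libraries against 3 the two-sided exact permutation test cannot go below 0.1, the value of each of these 8 genes, and adjusted over the 17 genes so compared it was 0.131. The sets of 5 and 3 were named after their values were seen. The 5 NLRP genes also have the longer coding transcripts, 3272 to 3551 bases, beside 1681 to 2333 bases in the other 5 genes. The length correction lowered the log2 fold change of each NLRP gene of the 10, such as Nlrp4f to 1.35. It raised that of each other gene, such as Tle6 to 0.35 and Khdc3 to 0.65. The ratios are not corrected for length, and the part of length in them was not tested.

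The ratio of Nlrp4f was -2.13, -1.86 and -2.02 in control and -1.20, -1.23 and -1.28 in tumor, a difference of 0.77 with SDs of 0.14 and 0.04 (n = 3 each). That of Nlrp14 was -0.06, 0.22 and 0.03 in control and 0.49, 0.45 and 0.43 in tumor, a difference of 0.40. The tumor libraries were close to each other in both genes, although their CPM differed by library. Tle6 went the other way, from 0.54, 0.22 and 0.37 to -0.06, 0.09 and -0.09, a difference of -0.40. Nlrp5 differed by 0.32 and Nlrp2 by 0.57, where a single control library, replicate 1, lay at -4.00 and the others at -3.32 and -3.12. For Nlrp4f, Nlrp2, Nlrp14, Nlrp5 and Tle6 the direction was the same with the zona genes alone as reference (0.95, 0.74, 0.57, 0.49 and -0.22) and with Gdf9 and Bmp15 alone (0.50, 0.30, 0.13, 0.049 and -0.66). For Nlrp9b, which differed by 0.18, the value was -0.087 with Gdf9 and Bmp15 alone, and for Khdc3 and Padi6, which differed by -0.18 and -0.09, it was 0.0015 and 0.086 with the zona genes alone. The reference genes themselves had log2 fold changes from 0.34 in Zp3 to 0.99 in Bmp15, of which Gdf9 and Bmp15 rose in edgeR's test and the zona genes did not pass. Both calls ended without control replicate 1, control replicate 3, tumor replicate 2 or tumor replicate 3, and that of Gdf9 also without control replicate 2 (adjusted p 0.0515, edgeR).

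**Figure D3:**
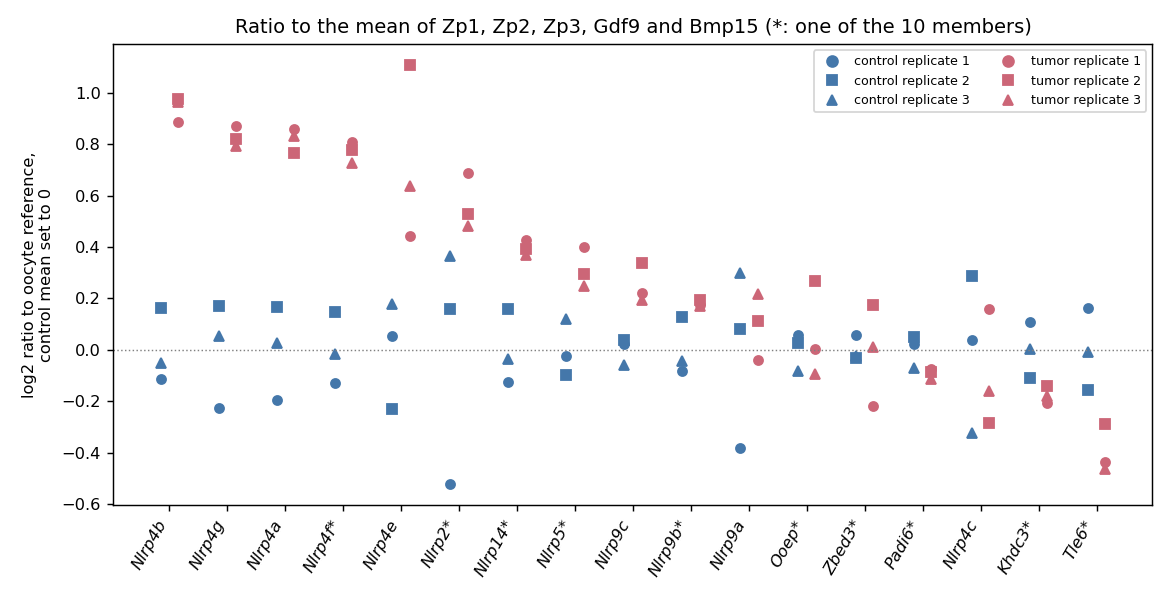
Log2 ratio to the mean of the 5 reference genes, with each gene's control mean set to 0 (y axis), for the 10 genes, marked with a star, and 7 other NLRP genes of the oocyte class (x axis); each symbol is 1 library. The 3 tumor libraries of Nlrp4f lie above all of its control libraries, a difference of 0.77, and those of Tle6 below, a difference of -0.40.

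Levels per transcript length were compared as FPKM, the authors' value scaled by transcript length and depth. In control the order of the means ran from Zbed3 at 110.0 ± 15.8 through Padi6 (60.8 ± 7.43), Tle6 (36.0 ± 5.61), Ooep (22.0 ± 2.39), Nlrp14 (16.5 ± 3.09), Khdc3 (12.4 ± 2.12), Nlrp5 (11.8 ± 2.74), Nlrp4f (3.65 ± 0.70) and Nlrp9b (3.44 ± 0.54) to Nlrp2 at 1.42 ± 0.63 FPKM (SD, n = 3 each). Among neighbours in that order the libraries of Nlrp14 and Khdc3, of Khdc3 and Nlrp5, and of Nlrp4f and Nlrp9b overlapped, and those of the other pairs did not. In tumor, Nlrp5 at 23.5 ± 4.41 FPKM stood above Khdc3 at 17.6 ± 1.93 FPKM with no overlap between their libraries, and Nlrp4f at 10.0 ± 1.54 FPKM above Nlrp9b at 6.38 ± 0.84 FPKM. Conversely, Tle6 at 42.8 ± 4.27 FPKM then overlapped Ooep at 36.9 ± 4.09 FPKM, and Ooep overlapped Nlrp14 at 34.8 ± 5.28 FPKM. Zbed3 at 174.0 ± 0.21 FPKM remained the highest and Nlrp2 at 3.23 ± 0.67 FPKM the lowest.

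**Figure D4:**
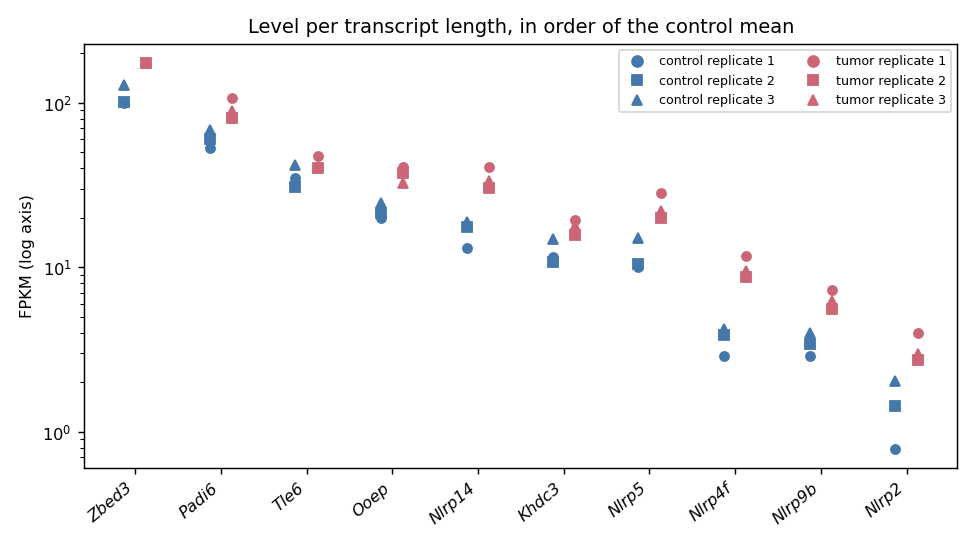
FPKM of the 10 genes on a log axis (y axis), in order of the control mean (x axis); each symbol is 1 library. The genes span from 1.42 FPKM in Nlrp2 to 110.0 FPKM in Zbed3 in control, and the libraries of Nlrp5 and Khdc3 overlap in control but not in tumor.

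For Ooep, Padi6, Nlrp14, Nlrp2 and Nlrp4f the deposited transcript table listed a single transcript. In Zbed3 the main transcript held between 94.1% and 97.1% of the gene's FPKM, and in Khdc3 between 76.4% and 88.4%. In Nlrp5 the main transcript held between 64.3% and 84.6% in control and between 71.7% and 91.9% in tumor, which overlapped. Tle6 was divided among more transcripts. One of them, NM_053254.2, held 9.17%, 8.91% and 33.5% of the gene's FPKM in control and 47.7%, 40.8% and 31.6% in tumor, and another, NM_001359135.1, held between 50.5% and 54.5% in control and between 23.6% and 41.4% in tumor. The first overlapped between the groups and the second did not. These shares come from single-end reads of 50 bases divided among transcripts by the authors' estimate, which for Nlrp9b gave one transcript 0 in control replicate 2 and between 65.3% and 91.7% in every other library; no test was made on them.

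Other NLRP genes of the oocyte class also had log2 fold changes above 0. Of 8 such genes beside the 10, 7 were in the table and tested. Of these 7, 5 rose, against 3.8% of all genes, and none fell, with a median log2 fold change of 1.35. The 2 that did not pass, Nlrp9a and Nlrp4c, had log2 fold changes of 0.67 and 0.59 (adjusted p 0.211 and 0.254, edgeR). Nlrp4b was measured at 3.35, 4.39 and 4.74 CPM in control and at 13.3, 11.1 and 12.8 CPM in tumor, a log2 fold change of 1.57 ± 0.21 (SE; adjusted p 0.0301, edgeR). Log2 fold changes were 1.44 in Nlrp4a, 1.45 in Nlrp4g, 1.35 in Nlrp4e and 0.88 in Nlrp9c (edgeR adjusted p 0.0355, 0.0382, 0.0397 and 0.0445). Of the 50-base windows of Nlrp4e 36.9% are shared with other genes, against none of those of Nlrp4b. Relative to the 5 reference genes, Nlrp4b, Nlrp4g, Nlrp4a and Nlrp4e differed by 0.94, 0.83, 0.82 and 0.73, beside 0.77 for Nlrp4f, each with an exact permutation p of 0.1, the smallest possible. Nlrp9c differed by 0.25, and Nlrp9a and Nlrp4c overlapped between the groups. For these ratios too, the share of all genes that separate was not computed. None of the 7 passed without control replicate 1, control replicate 3, tumor replicate 2 or tumor replicate 3. In these fits 5, 6, 5 and 5 of the 7 had an unadjusted p under 0.05 in edgeR and were higher in tumor. The counts of all genes at that p, which hold both directions, are given above, beside those of the 10 genes. After the length correction 3 of the 7 passed, and Nlrp4e had an adjusted p of 0.0553 in edgeR.

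**Figure D5:**
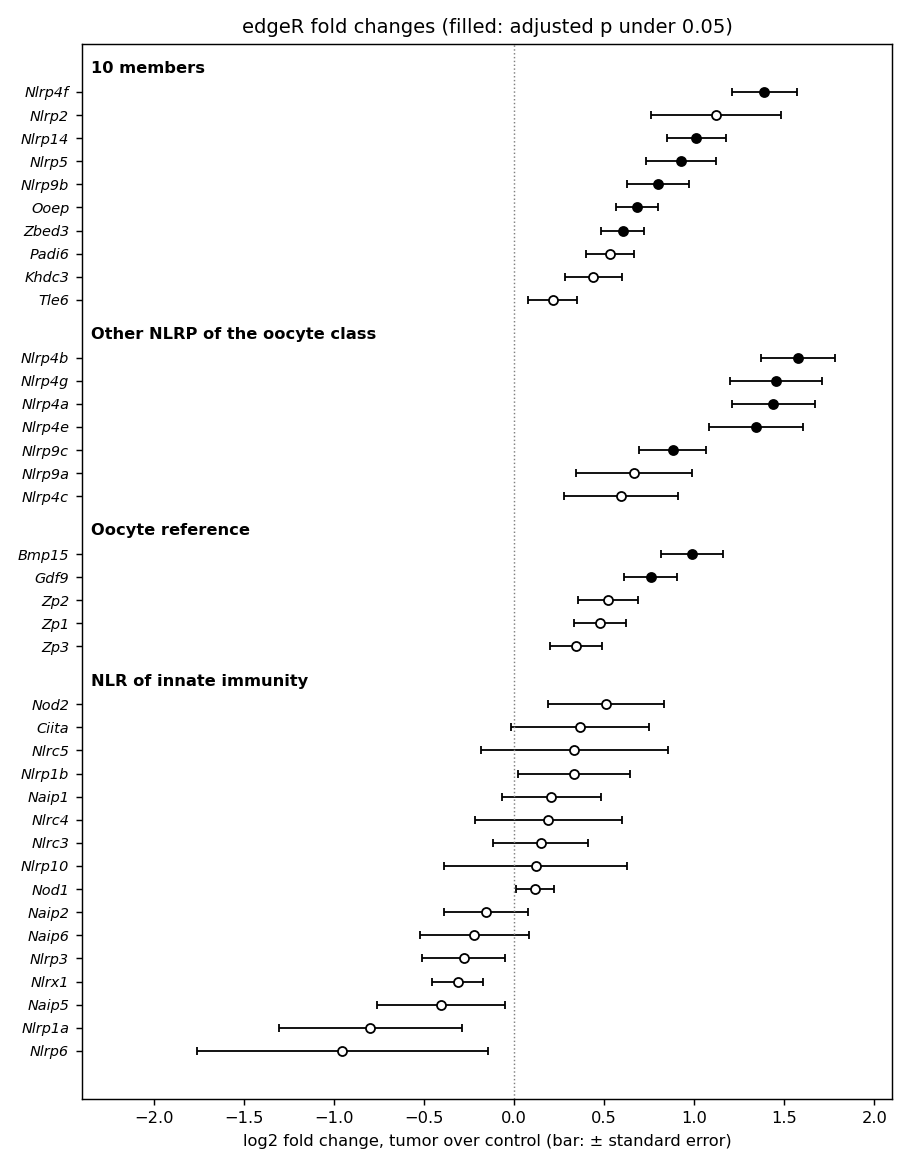
Log2 fold change of tumor over control with its standard error (x axis) for the 10 genes, 7 other NLRP genes of the oocyte class, the 5 reference genes and 16 NLR genes of innate immunity (y axis); filled circles have an adjusted p under 0.05 in edgeR. The 10 genes range from 0.21 in Tle6 to 1.39 in Nlrp4f, and no innate NLR gene has a filled circle.

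NLR genes of innate immunity, the branch that senses microbial and danger signals, did not pass in either direction. Of 17 such genes 16 were tested and none passed in edgeR, against 7.71% of all genes, with a median log2 fold change of 0.12. None had an unadjusted p under 0.05 in edgeR, against 4893 of all 15787 genes in either direction. At a q under 0.05 in the authors' deposited table none passed either. Nlrp3, the best known inflammasome sensor, was measured at 1.78, 1.87 and 1.78 CPM in control and at 1.56, 1.49 and 1.42 CPM in tumor (adjusted p 0.450, edgeR). Nlrx1, Nod2 and Nlrp1a had log2 fold changes of -0.31 ± 0.14, 0.51 ± 0.32 and -0.80 ± 0.51 (SE). Estimated counts of Nlrp1a were only 13.1, 8.86 and 15.75 in control and 8.34, 10.6 and 3.33 in tumor. Counts this low limit what the test can detect. Of 6 inflammasome adaptor and effector genes, the cytokine gene Il18 fell, from 13.2 ± 0.74 to 6.21 ± 0.73 CPM (SD, n = 3 each; adjusted p of 0.0355 in edgeR), none rose and 5 did not pass, among them the adaptor gene Pycard with a log2 fold change of -1.19 (adjusted p 0.0663) and Il1b with -0.12. Of all genes tested, 3.91% fell in edgeR's test. The call of Il18 too ended without control replicate 1, control replicate 3, tumor replicate 2 or tumor replicate 3, and after the length correction its log2 fold change was -0.81 (adjusted p 0.0625, edgeR).

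Among relatives of Ooep and Khdc3, whose genes form a KH-domain family of oocytes and early embryos, Khdc1a rose by 1.25 ± 0.19 and Khdc1b by 0.89 ± 0.16 on the log2 scale (SE; adjusted p 0.0343 and 0.0385, edgeR). The other 3 of the 5, Khdc1c, Dppa5a and Khdc4, did not pass, and the median of the list was 0.57. Of all genes tested, 3.8% rose and 3.91% fell, the shares to set beside the counts of each list here. Of 20 tested genes with maternal effects outside the complex, 6 rose and none fell, 14 did not pass, and the median was 0.46. Btg4, Npm2, Spin1 and Mos, which act in mRNA clearance, chromatin, meiosis and meiotic arrest, were the 4 with the smallest p and had log2 fold changes of 1.21, 0.72, 0.50 and 1.14. Of 9 oocyte regulators, Dazl rose with 1.34 and 8 did not pass, among them Figla with 0.52 and Nobox with 0.50, whose binding letters were searched above; the list's median was 0.90. For Khdc1a, Khdc1b, Btg4, Npm2, Spin1, Mos and Dazl the call ended without control replicate 1, control replicate 3, tumor replicate 2 or tumor replicate 3, and that of Spin1 also after the length correction (log2 fold change 0.38, adjusted p 0.0653, edgeR).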

How the data were processed

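Per the labels' protocols, Trizol RNA of ovaries was sequenced on an MGIseq500 in single-end mode with 50 bases a read; strandedness and RNA selection are not given here. The submitters' processing notes name RSEM 1.2.12, Bowtie2 2.2.5 and HISAT2 2.0.4 and the build GRCm38.p6 without their roles. Deposited per gene and transcript were the authors' estimated counts (39.2% of gene values above 0 were not whole) and FPKM values, per the file headers. A table of the authors' DESeq2 log2 fold changes with p-values and q-values was also deposited; its positive values mean higher in tumor. A further 30 expression columns were not used. The 10 genes and all lists were chosen with earlier results of these data known.

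Counts were rounded, filtered with filterByExpr of edgeR 4.0.16 (R 4.3.3), scaled by TMM and compared with the quasi-likelihood F test (robust, group as the only term), with Benjamini-Hochberg adjustment over 15787 genes at 0.05. The standard error is the absolute log2 fold change divided by the square root of F. Log2 CPM used a prior count of 2. The alternatives were DESeq2 1.42.0, its size factors in edgeR, no filter, limma 3.58.1 on log2 FPKM, a replicate block, each library left out, and an offset per library from a lowess of log2 CPM on the length implied by count over FPKM (FPKM of at least 0.5, span 0.3). The edgeR test was tried first on counts simulated gene by gene, with the spread fitted to these libraries. That trial held no shift shared by many genes of a library, so it does not cover such shifts. Shared 50-base windows were counted on both strands in GENCODE M21 transcripts, for each gene's longest coding transcript. A count of 3, the limit a count of 0 allows, is 0.156 to 0.164 CPM and covers counting error only. Named beside the 10 genes were up to 4 genes per list with the smallest p and the 5 most correlated genes; Nlrp9a, Nlrp9c, Nlrp4c, Khdc1c, Tle2, Zp3, Figla, Nobox, Ptch1 and the marker genes were named outside that rule.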

Additional observations from a re-analysis of the deposited data

How the results depend on the processing

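With all 6 libraries, 1217 genes passed, 6 of the 10 genes and 5 of the 7 other oocyte-class NLRP genes rose in edgeR. With libraries left out in turn these counts ranged from 0 to 2605, from 0 to 6 and from 0 to 5, and the cause was not tested beyond the fewer samples. With DESeq2, 3057 genes passed, and 8 of the 10 genes and 5 of the 7 rose. With the length correction the counts were 377, 4 and 3. The replicate numbers are shared between the groups in the labels, but deviations from the group means correlated at 0.24, -0.21 and 0.53 for the same-numbered pairs 1, 2 and 3, and no source says that a number marks a shared animal or batch; with the replicate block 0 genes passed in all 3 counts, with 4233 genes, 9 of the 10 and 5 of the 7 at an unadjusted p under 0.05. The direction of all 10 genes was the same under all 13 alternatives. With libraries left out in turn the log2 fold change of Il1b ranged from -0.36 without tumor replicate 1 to 0.0064 without tumor replicate 2, and it was 0.095 after the length correction; without control replicate 3 and without control replicate 2, the ends of their ranges, that of Padi2 was -1.30 and 0.34 and that of Padi4 -1.16 and 0.0084. Relative to other reference genes, Khdc3 and Padi6 had 0.0015 and 0.086 with the zona genes alone, and Nlrp9b and Nlrp9c had -0.087 and -0.015 with Gdf9 and Bmp15 alone; the cause was not tested. Depth limits Nlrp2 most among the 10, with 51 counts in its lowest library.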

Other observations

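Of 5 tested Groucho TLE relatives, Tle4, a corepressor gene, rose from 14.2 to 26.7 CPM and Tle5, a short member that lacks the repeat domain, fell from 1123 to 589.5 CPM, which on the log2 scale are changes of 0.91 ± 0.12 and -0.93 ± 0.18 (SE; adjusted p 0.0318 and 0.0408, edgeR). Tle1, Tle2 and Tle3 did not pass, and the list's median was 0.12. Of 3 ZBED relatives, Zbed6 rose, with 2.05, 3.16 and 1.83 CPM in control and 12.5, 4.74 and 10.4 CPM in tumor (adjusted p 0.0464, edgeR), while the log2 fold change was 0.75 in Zbed4 and -0.75 in Zbed5 (adjusted p 0.0568 and 0.0599, edgeR). Of the 3 tested relatives of Padi6, Padi1, Padi2 and Padi4, none passed in edgeR, at an unadjusted p under 0.05 or at a q under 0.05 in the authors' deposited table, and their log2 fold changes were -2.41, -0.93 and -0.77; Padi2 and Padi4 turned sign without control replicate 2. Padi1 had counts of 547, 1718 and 65 in control and of 416, 31 and 2 in tumor replicates 1, 2 and 3, with groups that overlapped. Of all genes tested, 7.71% passed in edgeR in either direction. The calls of Tle4, Tle5 and Zbed6 ended without control replicate 1, control replicate 3, tumor replicate 2 or tumor replicate 3. After the length correction Tle5 and Zbed6 had adjusted p of 0.0653 and 0.0733 in edgeR, and with limma on log2(FPKM + 1) and log2(FPKM + 0.1) the log2 fold change of Zbed6 was 0.95 and 1.754 (adjusted p 0.0582 and 0.0504).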
